A study of Mus musculus with 18 samples.

Results

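The genes described here are 10 members of the B7 family and related checkpoint molecules, surface proteins through which antigen-presenting cells raise or restrain the response of T cells and of other leukocytes. They are *Cd274* (PD-L1), *Pdcd1lg2* (PD-L2), *Cd80*, *Cd86*, *Icosl*, *Cd40*, *Cd83*, *Cd200*, *Cd200r1* and *Havcr2* (TIM-3). Each Ensembl gene ID of the count files that maps to one of these symbols was taken. This gave 10 of the 55029 genes listed for the *E. coli* and IFN-γ libraries, and the same 10 of the 54232 genes listed for the IL-4 libraries.

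RNA was counted in 18 libraries of mouse eosinophils to find how bacteria and cytokines of type 1 and type 2 immunity change these cells. The eosinophils came from the peritoneal cavity of C57BL/6 mice of the NJ.1638 line, whose *Il5* transgene raises eosinophil numbers, and were enriched by removing cells that bound beads carrying antibodies to Thy1.2 and B220. They were cultured for 18 h with IL-4 at 100 ng/ml, with heat-inactivated *E. coli*, with IFN-γ at 50 ng/ml, or with IFN-γ at 50 ng/ml and *E. coli* together, while unstimulated cells served as controls. Each of the 4 stimuli has 3 libraries and unstimulated cells have 6. The transgene is shared by all groups, unstimulated cells included. The labels do not give the age of the mice, whether cells of several mice were pooled, or how long unstimulated cells were cultured. The amount of *E. coli* is given in the authors' paper without a unit.

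The files fall into 2 sets by their layout and gene list. The first set of 12 libraries holds the 3 groups with *E. coli*, with IFN-γ or with both, and unstimulated libraries a, b and c, with 1523808 to 2734041 gene counts a library (median 1975355). The second set of 6 libraries holds IL-4 and unstimulated libraries d, e and f, with 3625036 to 6482289 gene counts. Unstimulated cells from the same set served as reference for a stimulus, and no level was compared between the sets. Levels are in CPM, counts scaled to a common library size by normalization, and values after ± are the standard deviation (SD, n = 3) for levels and the approximate standard error for log2 fold changes. The floor, a count of 3 in a library, corresponded to 1.00 to 2.19 CPM in the first set and 0.497 to 0.833 CPM in the second. Floors and intervals cover counting error only. Where counts are reads, those from 1 molecule are not independent, and the labels do not state how they were collapsed.

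Differences were tested with edgeR across all genes with enough counts, 9883 in the first set and 10556 in the second, and a gene was called higher or lower when its Benjamini-Hochberg adjusted p was under 0.05. The p-values measure only the spread between libraries, which may be technical. Since the method counts reads at the 3′ end of transcripts, levels of different members were not compared, and a marker named as highest is the one with the most counts. Counts in the first set stop at a ceiling. The highest count of any gene was 4089 to 4095 in each of its 12 libraries, against 4096 different identifiers of 6 bases, while it was 87377 to 191131 in the second set. Of the members in the first set, *Cd274* reached the highest count, 2726, so its values with a correction for the ceiling are given beside the others. Corrected values are also given for eosinophil and macrophage markers and for the named genes of the related lists that came nearest to the ceiling.

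T cells need a further signal beside the one from their antigen receptor, and CD80 and CD86 on an antigen-presenting cell give it through CD28, while CTLA-4 binds the same ligands and restrains the cell. PD-L1 and PD-L2 bind PD-1 and restrain T cells, ICOSL binds ICOS, CD40 receives the CD40 ligand of helper T cells, and CD200 acts on CD200R1 of myeloid cells. In macrophages interferons are known to raise PD-L1 and IL-4 to raise PD-L2, and eosinophils can carry major histocompatibility complex class II and act on T cells.

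The eosinophil label was checked against 12 marker genes, of which 11 or 12 were detected in each library. Their summed level was 4493, 5949 and 4597 CPM in unstimulated libraries a, b and c, 4350.4, 3861 and 4319.8 CPM with *E. coli*, 4687, 4222 and 5007 CPM with IFN-γ and 3952, 3521 and 3744 CPM with both. In the second set it was 5591, 6608 and 5673 CPM in unstimulated cells and 5463, 5702 and 5624 CPM with IL-4. The marker with the most counts was *Alox15* or *Ccr3*, with 2258 to 3732 counts in the first set, so that the counts of these genes are held down by the ceiling. Corrected for it, the sums were 6584, 7246 and 6295 CPM in unstimulated libraries a, b and c, 5607, 5247 and 4829 CPM with *E. coli*, 5533, 4892 and 5776 CPM with IFN-γ and 3926, 3655 and 3733 CPM with both, where all 3 lay below every other group. The correction raised the sums except in libraries 1 and 3 with both stimuli, where they were slightly lower. A granule protein gene, *Epx* or *Prg3*, had a count of 0 in 8 libraries of the first set. Macrophage markers were also present, all 12 in 16 libraries and all but *Mrc1* in unstimulated library b and IFN-γ library 1.

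Of the 10 members, 9 had enough counts to be tested in both sets and *Havcr2* did not. With *E. coli*, 4 of the 9 were called higher, beside 13.5% of all genes tested, and 1 lower, beside 16.7%. IFN-γ raised 5 members, beside 15.6% of all genes. Among these 5, *Pdcd1lg2* did not pass the filter on low counts in the 6 compared libraries alone. For lower levels with IFN-γ the count was 0 by edgeR, beside 16.0% of all genes, 0 at an unadjusted p under 0.05 and 0 by DESeq2. Both stimuli together raised 7 members, beside 23.9% of all genes, and lowered 1, beside 25.2%. With IL-4, 2 members were called higher, beside 5.97%, and 1 lower, beside 4.35%. A share of 1 in 9 called lower is close to that of all genes with *E. coli*, and below it with both stimuli. The median log2 fold change of the 9 members was 0.09 with *E. coli*, 0.94 with IFN-γ, 1.43 with both and 0.36 with IL-4, against −0.02, −0.03, −0.04 and 0.00 over all genes.

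**Figure D1:**
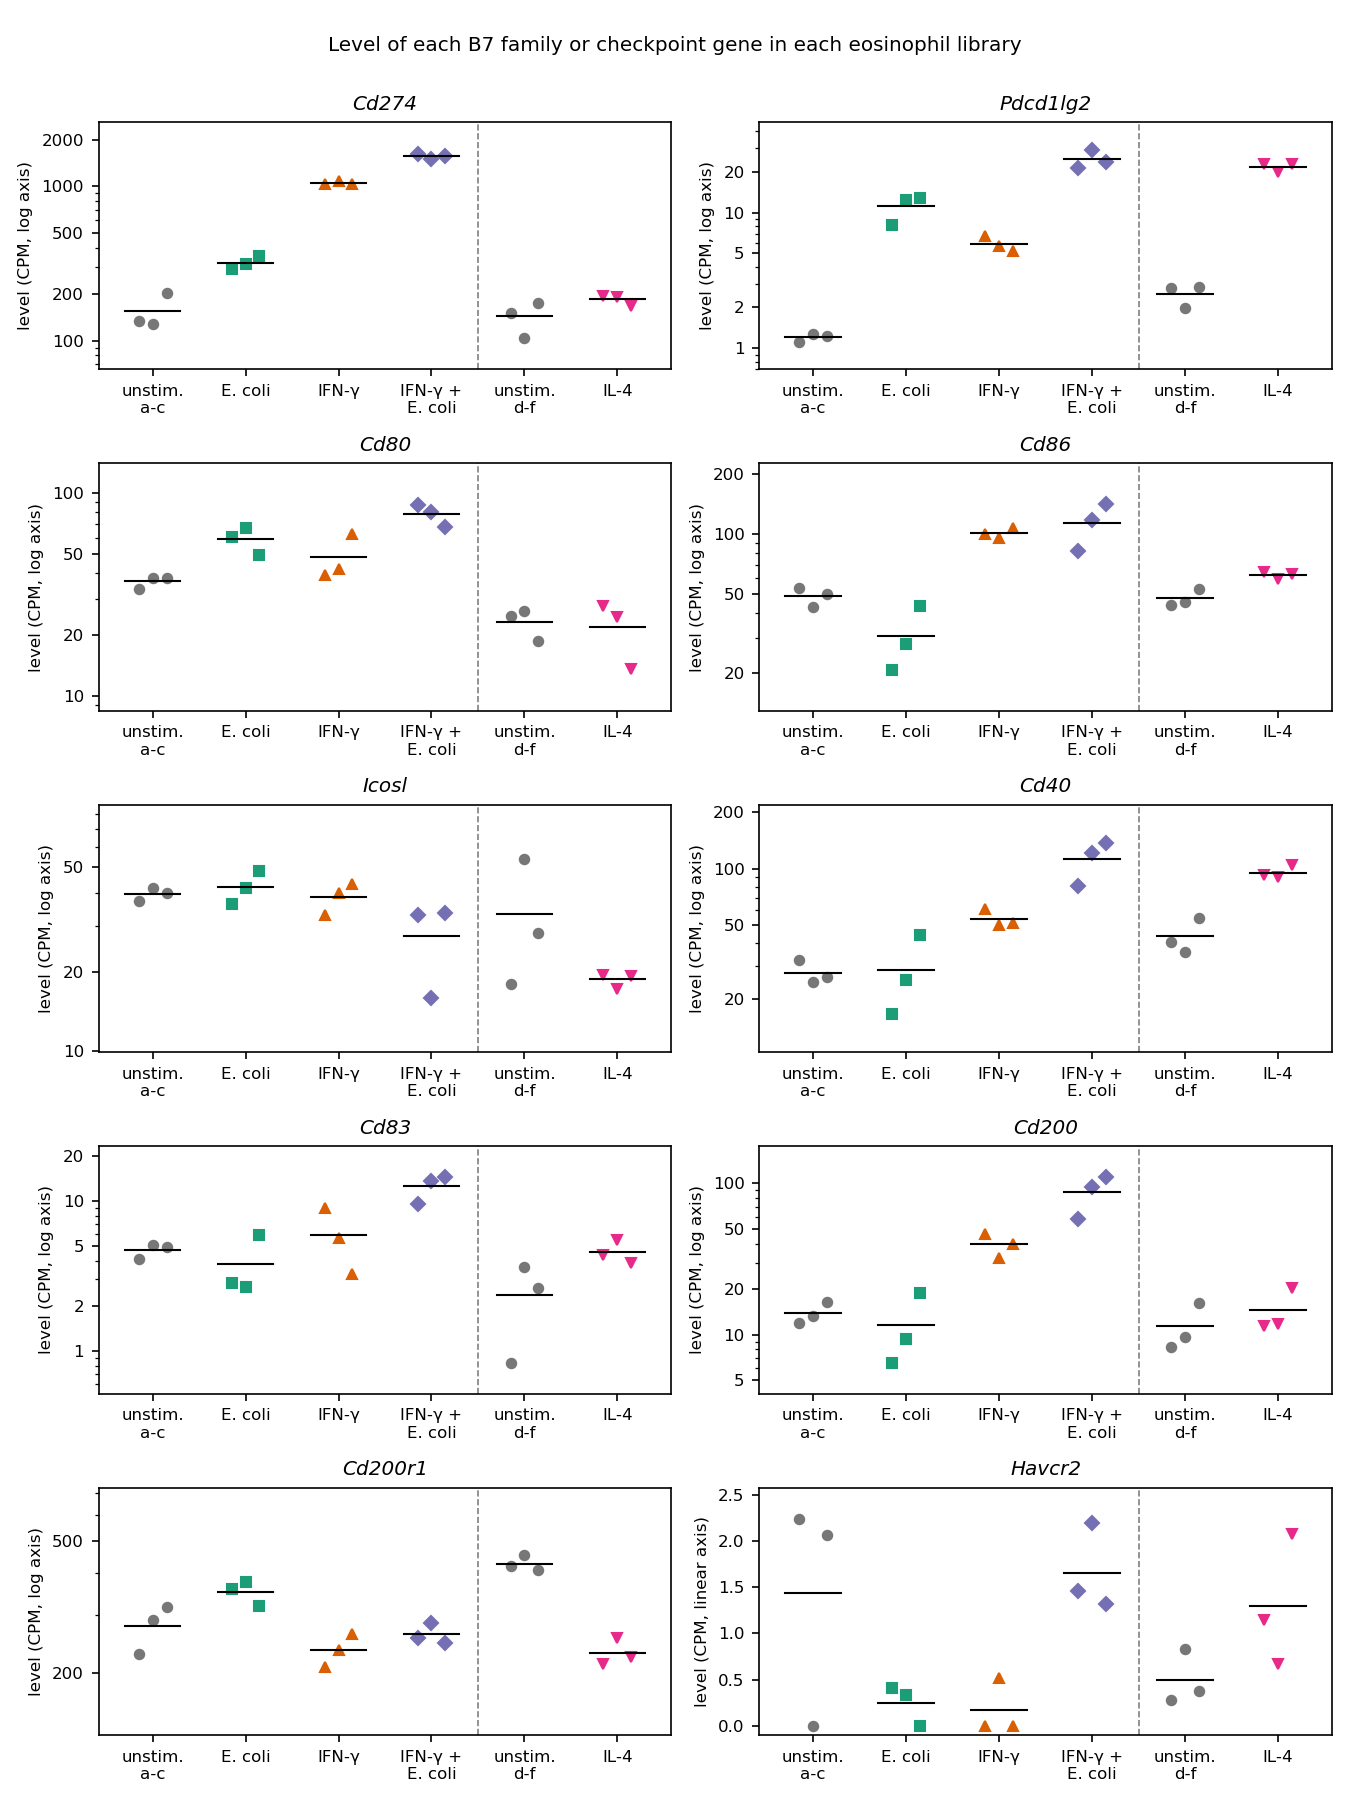
Level of each member in CPM (log axis, linear for *Havcr2*) in every library of the 6 groups, where points are libraries, bars are group means and the dashed line splits the 2 sets. *Cd274* is at 127 to 203 CPM in unstimulated libraries a, b and c, 1027 to 1076 CPM with IFN-γ and 1494 to 1625 CPM with both stimuli.

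**Figure D2:**
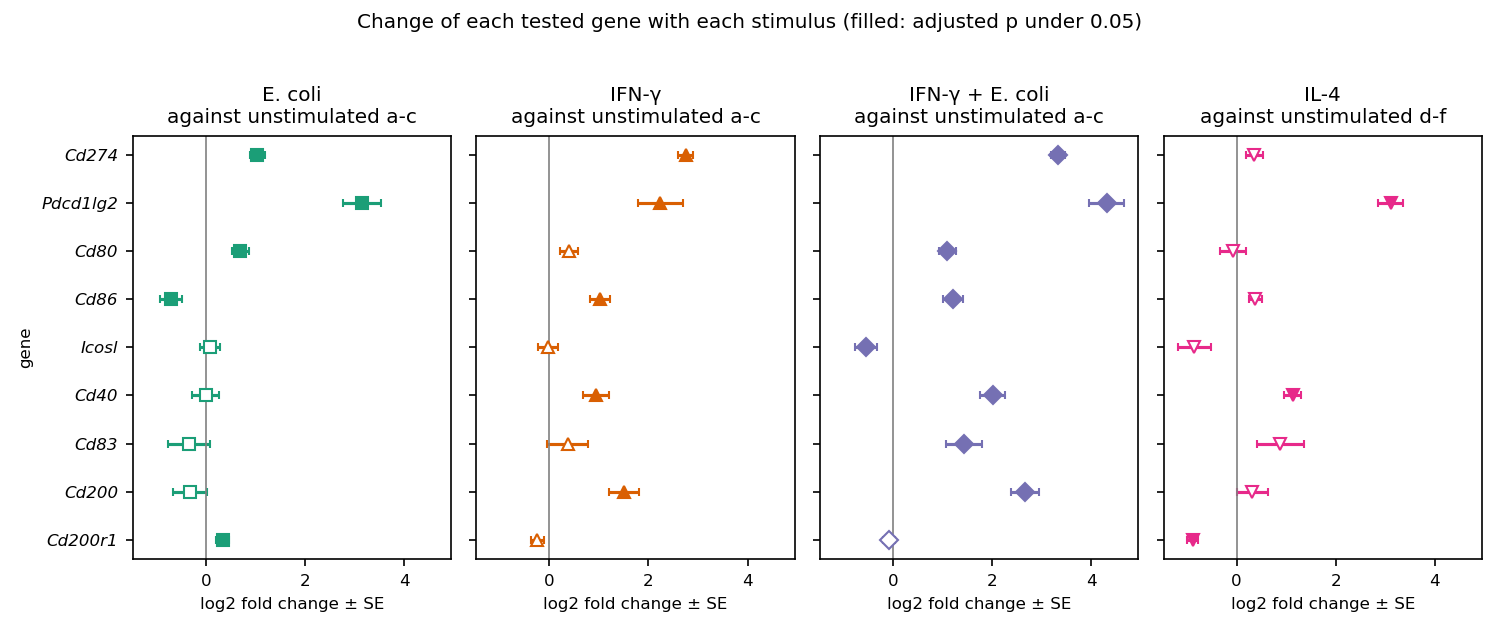
Log2 fold change of the 9 tested members (points, with error bars of 1 standard error) after each stimulus against unstimulated cells of the same set, filled where the adjusted p was under 0.05. *Pdcd1lg2* is filled for all 4 stimuli, from 2.24 with IFN-γ to 4.31 with both, and *Cd274* for the 3 stimuli of the first set.

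*Cd274* encodes PD-L1, the ligand of PD-1 that most cell types can display. Unstimulated libraries a, b and c held 133, 127 and 203 CPM, and *E. coli* libraries 291, 311 and 355 CPM. With IFN-γ the 3 libraries were at 1027, 1076 and 1029 CPM, and with both stimuli at 1625, 1494 and 1561 CPM. The 4 groups did not overlap, and their order was unstimulated, *E. coli*, IFN-γ and both. Log2 fold changes were 1.04 ± 0.15, adjusted p = 2.74e-05 with *E. coli*, 2.75 ± 0.15, adjusted p = 1.06e-10 with IFN-γ and 3.33 ± 0.15, adjusted p = 4.58e-12 with both. In the IL-4 set *Cd274* was at 151, 104 and 176 CPM in unstimulated cells and 195, 191 and 168 CPM with IL-4. These groups overlapped, since IL-4 library 3 lay below unstimulated library f, and the difference was not called (0.36 ± 0.18, adjusted p = 0.237).

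A correction that takes each count as a number of different identifiers out of 4096, chosen after seeing the data, lowered the levels of *Cd274* in unstimulated and *E. coli* libraries and raised them in those with both stimuli. Corrected levels were 106, 101 and 164 CPM in unstimulated cells and 242, 265 and 299 CPM with *E. coli*. They were 1045, 1155 and 1003 CPM with IFN-γ and 1817, 1884 and 1800.1 CPM with both. The groups stood in the order of the uncorrected levels and did not overlap. Corrected log2 fold changes were larger for every stimulus of the first set, at 1.11 for *E. coli*, 3.11 for IFN-γ and 3.89 for the pair. Each of these was called.

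*Pdcd1lg2* encodes PD-L2, the PD-1 ligand found mainly on myeloid antigen-presenting cells. Unstimulated libraries a, b and c held 3, 2 and 3 counts (1.12, 1.27 and 1.24 CPM), at or under the floor. With *E. coli* there were 20, 37 and 26 counts (8.16, 12.4 and 12.8 CPM) and with IFN-γ 12, 11 and 8 counts (6.72, 5.64 and 5.23 CPM). Both stimuli gave 29, 53 and 36 counts (21.2, 29.0 and 23.7 CPM). The 4 groups did not overlap, and their order differed from that of *Cd274*, with IFN-γ below *E. coli*. The ratio of counts to unstimulated cells, each scaled by library size, was 9.29 (95% interval 4.5 to 22.2) with *E. coli*, 4.92 (95% interval 2.21 to 12.4) with IFN-γ and 20.9 (95% interval 10.3 to 49.6) with both. Fitted log2 fold changes were 3.15 ± 0.38, adjusted p = 4.20e-06, 2.24 ± 0.45, adjusted p = 7.69e-04 and 4.31 ± 0.35, adjusted p = 8.56e-09. Since its unstimulated counts were at or under the floor, the gene passed the filter on low counts through its stimulated libraries. These adjusted p-values are conditional on that. With IFN-γ the gene did not pass in the 6 compared libraries alone, and over 10 alternatives its adjusted p ranged from 2.19e-04 to 0.00597.

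IL-4 raised *Pdcd1lg2* as well. The gene had 10, 12 and 15 counts in unstimulated libraries d, e and f (2.78, 1.99 and 2.83 CPM) and 119, 119 and 88 counts with IL-4 (22.6, 19.8 and 22.8 CPM). All 3 IL-4 libraries lay above all 3 unstimulated ones, with a ratio of 8.7 (95% interval 6.18 to 12.6) and a log2 fold change of 3.11 ± 0.25, adjusted p = 9.61e-05.

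*Cd274* (ENSMUSG00000016496, chr19:29367455-29388095 of GRCm38, plus strand) and *Pdcd1lg2* (ENSMUSG00000016498, chr19:29410919-29471161, plus strand) are neighbours 22.8 kb apart. Exons of *Cd274* overlap the antisense gene *AC119228.1* on the opposite strand. It is also the 1 gene with a stretch of at least 200 bases at 95% identity or more to a *Cd274* transcript, and whether reads were counted by strand is not stated. Of 12 other genes within 300 kb of *Cd274*, not counting *Pdcd1lg2*, 7 were tested. *Insl6* rose with IFN-γ (2.61), with both stimuli (3.61) and with IL-4 (1.49, log2 fold changes). *Ric1* rose with *E. coli* (1.13), IFN-γ (1.63) and both (2.49). *A930007I19Rik* rose with IFN-γ (1.90) and with both (2.64). In contrast *Ermp1* was lower with each stimulus of the first set (−0.98, −1.04 and −1.35). *Plgrkt* was lower with *E. coli* (−0.64) and higher with both (0.77), and *Rcl1* was higher with *E. coli* (0.69) and lower with IFN-γ (−0.93). *Jak2*, a kinase of the IFN-γ receptor, fell with *E. coli* (−0.32) and rose with IL-4 (0.57).

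**Figure D3:**
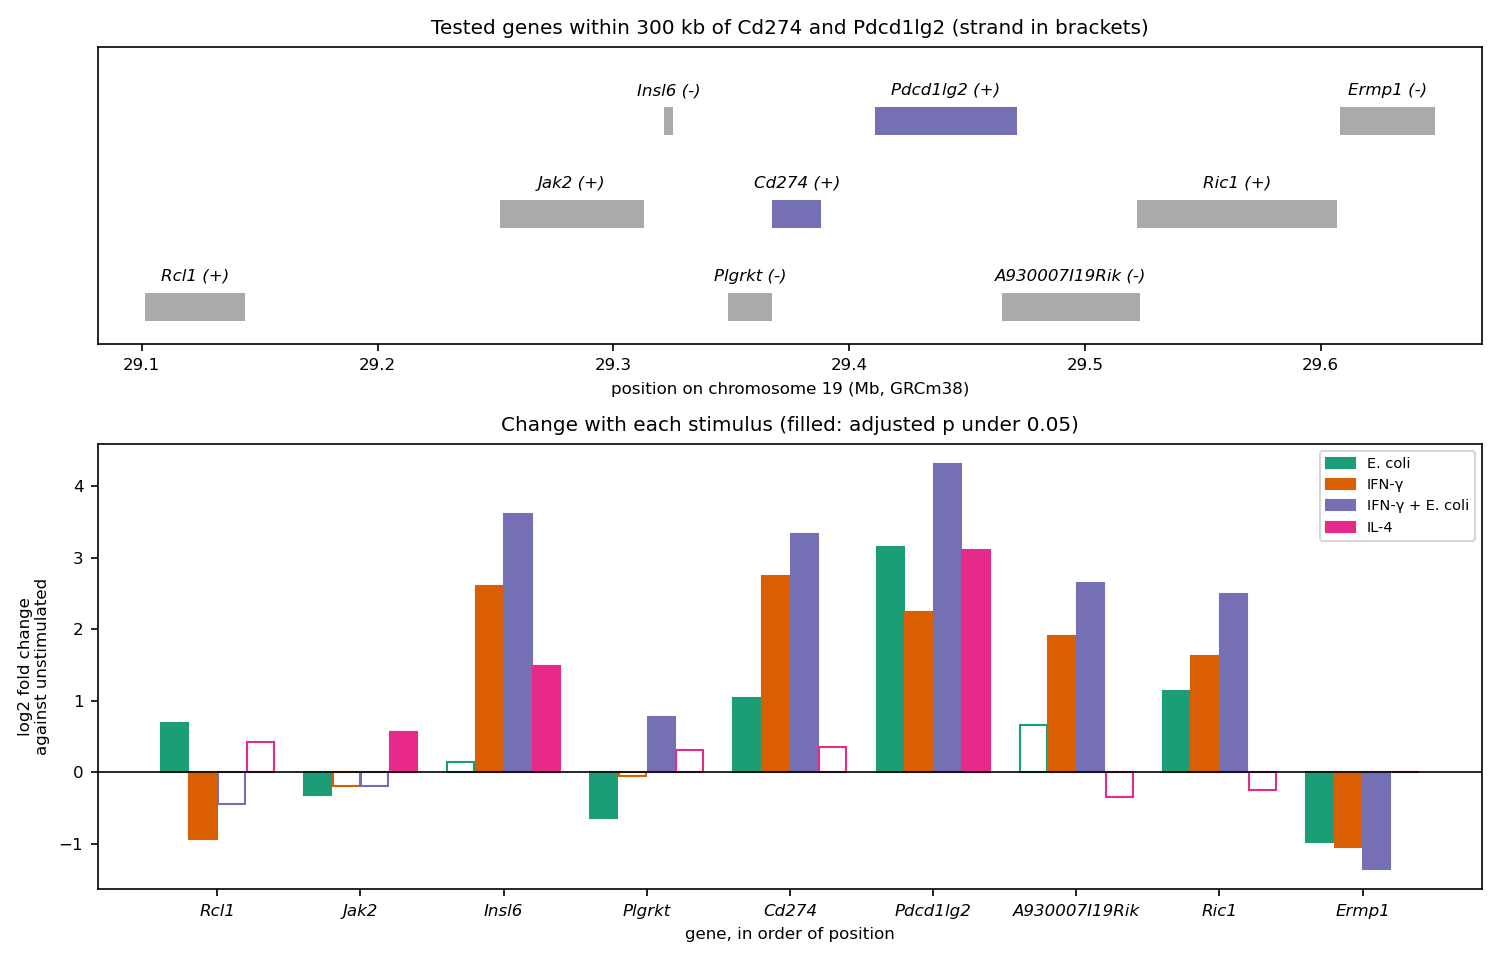
Map of *Cd274*, *Pdcd1lg2* and the other tested genes within 300 kb of *Cd274* on chromosome 19 (position in Mb, GRCm38). Bars are the log2 fold change of each gene after every stimulus, filled where called. The window was set around *Cd274* alone, although the figure title also names *Pdcd1lg2*. *Insl6*, *Ric1*, *Cd274* and *Pdcd1lg2* are called higher with IFN-γ and with both stimuli, and *Ermp1* lower.

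Since the neighbours *Cd274* and *Pdcd1lg2* rose together with all 3 stimuli of the first set, their promoters are shown, 250 bases before to 50 after the start of transcription (RefSeq, GRCm38.p6, plus strand). The RefSeq table holds 6 of the 10 members and lacks *Cd86*, *Cd40*, *Cd83* and *Cd200r1*. In all, 3 motifs were searched on both strands: the interferon regulatory factor motif GAAANNGAAA, the GAS motif TTCNNNGAA and the NF-κB motif known as the kB site. They occur in 3.44%, 8.30% and 4.51% of all 32851 promoters of the table. In the 6 members the only match was 1 stretch that fits the kB site on both strands, in capitals, at chr19:29410675-29410684 of the *Pdcd1lg2* promoter, whose first base lies at −244 from the start. No letters of the *Cd274* window (chr19:29367188-29367487) matched a motif, and the *Pdcd1lg2* window is chr19:29410669-29410968.
Cd274: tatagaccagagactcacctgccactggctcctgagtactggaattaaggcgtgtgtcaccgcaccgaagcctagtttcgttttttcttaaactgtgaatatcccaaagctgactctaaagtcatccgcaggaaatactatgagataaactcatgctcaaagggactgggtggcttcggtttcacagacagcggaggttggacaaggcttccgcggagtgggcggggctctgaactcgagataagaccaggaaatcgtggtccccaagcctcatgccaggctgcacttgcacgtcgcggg
Pdcd1lg2: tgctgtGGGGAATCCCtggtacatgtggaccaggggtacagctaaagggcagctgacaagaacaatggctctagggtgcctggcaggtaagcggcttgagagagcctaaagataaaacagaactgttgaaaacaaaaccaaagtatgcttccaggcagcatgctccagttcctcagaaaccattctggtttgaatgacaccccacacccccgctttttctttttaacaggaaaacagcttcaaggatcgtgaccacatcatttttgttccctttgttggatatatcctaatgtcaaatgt

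*Cd80* encodes one of the pair of ligands of CD28 and CTLA-4. Its level was 33.5, 38.0 and 38.0 CPM in unstimulated libraries a, b and c and 60.4, 66.9 and 49.4 CPM with *E. coli*. It was 39.2, 42.0 and 62.8 CPM with IFN-γ and 86.9, 80.0 and 67.3 CPM with both stimuli. Each stimulated group lay above the unstimulated libraries, IFN-γ and *E. coli* libraries overlapped, and those with both stimuli lay above all others. *Cd80* was called higher with *E. coli* (0.70 ± 0.17, adjusted p = 0.00474) and with both (1.1 ± 0.18, adjusted p = 4.92e-05), and not with IFN-γ (0.39 ± 0.18, adjusted p = 0.121). In the IL-4 set the libraries overlapped, at 24.7, 26.0 and 18.7 CPM unstimulated and 27.6, 24.4 and 13.5 CPM with IL-4 (−0.07 ± 0.26, adjusted p = 0.899).

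*Cd86*, the other ligand of the pair, went down with *E. coli* and up with IFN-γ. Unstimulated libraries a, b and c held 53.7, 43.1 and 50 CPM and *E. coli* libraries 20.8, 28.1 and 43.4 CPM. With IFN-γ the level was 100.2, 95.3 and 107 CPM and with both stimuli 82.5, 118 and 141 CPM. Both groups with IFN-γ lay above all unstimulated libraries, while *E. coli* library 3 was within the unstimulated range. Log2 fold changes were −0.70 ± 0.22, adjusted p = 0.0207 with *E. coli*, 1.03 ± 0.20, adjusted p = 6.89e-04 with IFN-γ and 1.21 ± 0.20, adjusted p = 6.72e-05 with both. The call with *E. coli* was lost without unstimulated library a (−0.63, adjusted p = 0.0918), without unstimulated library c (−0.69, adjusted p = 0.0531), without *E. coli* library 1 (−0.48, adjusted p = 0.125) and without *E. coli* library 2 (−0.63, adjusted p = 0.0839), and over 11 alternatives its adjusted p ranged from 0.00148 to 0.125. With IL-4 *Cd86* was at 64.3, 59.6 and 62.7 CPM against 44.2, 45.7 and 52.9 CPM in unstimulated libraries d, e and f. These groups did not overlap, and the difference was not called (0.38 ± 0.14, adjusted p = 0.112). Macrophages can express *Cd86*, and the summed level of their 12 markers was 1439, 1386 and 2572 CPM in the *E. coli* libraries and 2549, 2239 and 2408 CPM in unstimulated libraries a, b and c. It was lowest in the 2 *E. coli* libraries with the lowest *Cd86*, as were the sums of B cell and dendritic cell markers given below. With *E. coli*, 5 of 5 tested B cell markers (median −1.82) and 2 of 3 dendritic cell markers (median −1.59) were called lower. Of macrophage markers 3 of 11 were called lower (median −0.48), beside 16.7% of all genes. The part of these cell types in the fall was not tested.

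*Icosl* encodes the ligand of ICOS, a receptor of activated T cells. It was at 37.3, 41.8 and 40.1 CPM in unstimulated libraries a, b and c, 36.3, 41.8 and 48.4 CPM with *E. coli* and 33.0, 40.0 and 43.2 CPM with IFN-γ, groups that overlapped and were not called (0.09, adjusted p = 0.786 and −0.03, adjusted p = 0.92). With both stimuli it was at 32.9, 15.9 and 33.6 CPM, below every unstimulated library and lowest in library 2. It was called lower there (−0.55 ± 0.22, adjusted p = 0.0436). That call was lost with DESeq2 size factors (−0.53, adjusted p = 0.0552), with DESeq2 (−0.52, adjusted p = 0.0793), from the 6 compared libraries alone (−0.57, adjusted p = 0.062), without unstimulated library a (−0.60, adjusted p = 0.064), without unstimulated library b (−0.50, adjusted p = 0.104), without unstimulated library c (−0.54, adjusted p = 0.0874), without IFN-γ with *E. coli* library 2 (−0.24, adjusted p = 0.318) and with the correction for the count ceiling (−0.55, adjusted p = 0.0509), with adjusted p from 0.0168 to 0.318 over 11 alternatives. In the IL-4 set the level was 18.1, 54.0 and 28.1 CPM in unstimulated libraries d, e and f and 19.6, 17.3 and 19.4 CPM with IL-4. Unstimulated library d lay within the IL-4 range and the difference was not called (−0.85 ± 0.33, adjusted p = 0.136), but it was with no filter on low counts (−0.88, adjusted p = 0.00108) and without unstimulated library d (−1.14, adjusted p = 0.0202), with adjusted p from 0.00108 to 0.381 over 9 alternatives. With a library left out, this log2 fold change ran from −1.14 to −0.33, and unstimulated library e stood highest at 54.0 CPM.

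The genes *Cd80* (ENSMUSG00000075122, chr16:38455561-38496335, plus strand) and *Cd86* (ENSMUSG00000022901, chr16:36603869-36666081, minus strand) lie 1789 kb apart on chromosome 16. *Icosl* (ENSMUSG00000000732) is at chr10:78069302-78083913 on the plus strand.

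*Cd40* encodes the receptor through which helper T cells activate antigen-presenting cells. It was at 32.4, 24.7 and 26.4 CPM in unstimulated libraries a, b and c and 16.7, 25.4 and 44.4 CPM with *E. coli*. IFN-γ libraries held 61.0, 50.2 and 51.0 CPM and those with both stimuli 81.1, 121 and 137 CPM. The *E. coli* libraries spread to both sides of the unstimulated ones, the IFN-γ libraries lay above them, and those with both stimuli lay above all others. Log2 fold changes were 0.00 ± 0.27, adjusted p = 0.995 with *E. coli*, 0.94 ± 0.26, adjusted p = 0.0101 with IFN-γ and 2.01 ± 0.25, adjusted p = 2.12e-06 with both. IL-4 raised *Cd40* from 40.3, 35.9 and 54.6 CPM in unstimulated libraries d, e and f to 92.1, 89.7 and 104 CPM, with no overlap (1.13 ± 0.17, adjusted p = 0.00277). In each of the 6 groups *Cd40* was highest in the library with the highest macrophage sum, and the part of macrophage RNA was not tested.

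*Cd83*, a surface marker of mature dendritic cells, was low. Its level was 4.1, 5.07 and 4.96 CPM in unstimulated libraries a, b and c, 2.86, 2.67 and 5.92 CPM with *E. coli* and 8.96, 5.64 and 3.27 CPM with IFN-γ, and these groups overlapped (−0.34, adjusted p = 0.587 and 0.37, adjusted p = 0.526). With both stimuli it was at 9.49, 13.7 and 14.5 CPM, above every library of the other groups, and it was called higher than in unstimulated cells (1.43 ± 0.37, adjusted p = 0.00325). With IL-4 it was at 4.38, 5.48 and 3.89 CPM against 0.833, 3.64 and 2.64 CPM in unstimulated libraries d, e and f. The IL-4 libraries were the higher ones without overlap, and the difference was not called (0.88 ± 0.47, adjusted p = 0.27). Library 3 had the highest *Cd83* and the highest macrophage sum both with *E. coli* and with both stimuli. *Cd40* (ENSMUSG00000017652) lies at chr2:165055627-165072948 and *Cd83* (ENSMUSG00000015396) at chr13:43784775-43803132, both on the plus strand.

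*Cd200* encodes a ligand that restrains myeloid cells through CD200R1. Unstimulated libraries a, b and c held 11.9, 13.3 and 16.5 CPM and *E. coli* libraries 6.53, 9.36 and 18.8 CPM. With IFN-γ the level was 46.5, 32.3 and 39.9 CPM, and with both stimuli 58.4, 94.2 and 110.1 CPM. *E. coli* libraries overlapped the unstimulated ones, IFN-γ libraries lay above both, and libraries with both stimuli were the highest. Log2 fold changes were −0.32 ± 0.34, adjusted p = 0.521 with *E. coli*, 1.5 ± 0.30, adjusted p = 7.34e-04 with IFN-γ and 2.66 ± 0.28, adjusted p = 2.33e-07 with both. The IL-4 set overlapped, at 8.33, 9.61 and 16.2 CPM in unstimulated cells and 11.4, 11.8 and 20.5 CPM with IL-4 (0.32 ± 0.32, adjusted p = 0.569). As with *Cd40*, the highest *Cd200* with *E. coli* and with both stimuli was in library 3, that of the highest macrophage sum.

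*Cd200r1* encodes the inhibitory receptor of CD200. It was at 228, 289.6 and 317 CPM in unstimulated libraries a, b and c and 359, 376 and 319 CPM with *E. coli*. With IFN-γ it was at 208, 235 and 263 CPM and with both stimuli at 255, 284 and 247 CPM. All *E. coli* libraries were above the unstimulated ones, the other stimulated groups overlapped them, and the call with *E. coli* was close to the threshold (0.34 ± 0.13, adjusted p = 0.0497). It was lost with DESeq2 (0.35, adjusted p = 0.0527), without unstimulated library a (0.21, adjusted p = 0.262), without unstimulated library b (0.39, adjusted p = 0.0532), without *E. coli* library 1 (0.33, adjusted p = 0.116) and without *E. coli* library 2 (0.30, adjusted p = 0.16), and its adjusted p ranged from 0.0215 to 0.262 over 11 alternatives. Neither IFN-γ (−0.24 ± 0.13, adjusted p = 0.169) nor both stimuli (−0.08 ± 0.13, adjusted p = 0.619) gave a call, but IFN-γ did without unstimulated library a (−0.37, adjusted p = 0.0476), with adjusted p from 0.0476 to 0.529 over 11 alternatives.

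With IL-4 *Cd200r1* fell. Unstimulated libraries d, e and f were at 420.2, 454 and 410.4 CPM and IL-4 libraries at 213, 255 and 223 CPM. No library overlapped the other group, and the log2 fold change was −0.89 ± 0.12, adjusted p = 0.00121. The macrophage sum was also lower with IL-4 (4271, 3965 and 4949.6 CPM against 5446, 5207 and 6519.9 CPM), and its part in this fall was not tested. *Cd200* (ENSMUSG00000022661, chr16:45382135-45409053, minus strand) and *Cd200r1* (ENSMUSG00000022667, chr16:44765736-44794978, plus strand) lie 587 kb apart on chromosome 16. Among the related receptor genes beside *Cd200r1*, *Cd200r4* rose with *E. coli* (0.65 ± 0.18, adjusted p = 0.0109), with IFN-γ (2.14 ± 0.17, adjusted p = 1.66e-08) and with both (2.57 ± 0.17, adjusted p = 3.85e-10). *Cd200r3* was called lower with IL-4 (−0.91 ± 0.26, adjusted p of 0.05 after rounding), and *Cd200r2* had at most 3 counts in every library.

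*Havcr2* encodes TIM-3, an inhibitory receptor of T cells and myeloid cells, and lies at chr11:46454935-46481255 (ENSMUSG00000020399, plus strand). It had 6, 0 and 5 counts in unstimulated libraries a, b and c, 1, 1 and 0 with *E. coli*, 0, 1 and 0 with IFN-γ and 2, 4 and 2 with both stimuli. In the second set it had 1, 5 and 2 counts in unstimulated libraries d, e and f and 6, 4 and 8 with IL-4. The counts of most libraries were near the floor, and the gene did not pass the filter on low counts in either set and was not tested.

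Libraries differed in the summed level of macrophage markers, and whether eosinophils also expressed these genes was not tested. The summed level of the 12 macrophage markers was 2549, 2239 and 2408 CPM in unstimulated libraries a, b and c and 1439, 1386 and 2572 CPM with *E. coli*. It was 3098, 2894 and 3052 CPM with IFN-γ and 2607, 3051 and 3574 CPM with both stimuli. *Lyz2*, *Apoe* or *Csf1r* had the most counts in a library, up to 2437 in the first set. Corrected for the ceiling the sums were 2472, 1942 and 2217 CPM in unstimulated cells, 1204, 1175 and 2319 CPM with *E. coli*, 2835, 2649 and 2756 CPM with IFN-γ and 2258, 2869.7 and 3363 CPM with both. Among *E. coli* libraries, library 3 had the highest macrophage sum and the highest *Cd86*, *Cd40*, *Cd83* and *Cd200*. Among libraries with both stimuli, library 1 had the lowest sum and the lowest *Cd86*, *Cd40*, *Cd83* and *Cd200*, and library 3 the highest of each. In all 6 groups *Cd40* was highest in the library with the highest sum, which held for the other 3 genes in some groups only. Of unstimulated libraries a, b and c, library a had the highest sum and the highest *Cd86* and *Cd40*, but the lowest *Cd83* and *Cd200*. Of the IFN-γ libraries, library 1 had the highest sum and the highest *Cd40*, *Cd83* and *Cd200*, while *Cd86* was highest and *Cd83* lowest in library 3, with a sum close to it. *Cd274* was also highest in library 3 with *E. coli*, and with both stimuli its order depended on the correction for the ceiling, the highest being library 1 without it and library 2 with it. In the second set the macrophage sum was 5446, 5207 and 6519.9 CPM in unstimulated cells and 4271, 3965 and 4949.6 CPM with IL-4, lower with IL-4. Within its groups, unstimulated library f and IL-4 library 3 had the highest sums and the highest *Cd200*, and *Cd86* was highest in library f and in IL-4 library 1. In contrast *Cd83* was highest in unstimulated library e (3.64 CPM) and IL-4 library 2 (5.48 CPM), which had the lowest sums of their groups. *Cd200r1* was lower with IL-4 as well, whereas *Cd40* and *Pdcd1lg2* were higher. In these bulk libraries fewer cells of a type and less RNA per cell cannot be told apart, and the part of macrophage RNA in the results was not tested.

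**Figure D4:**
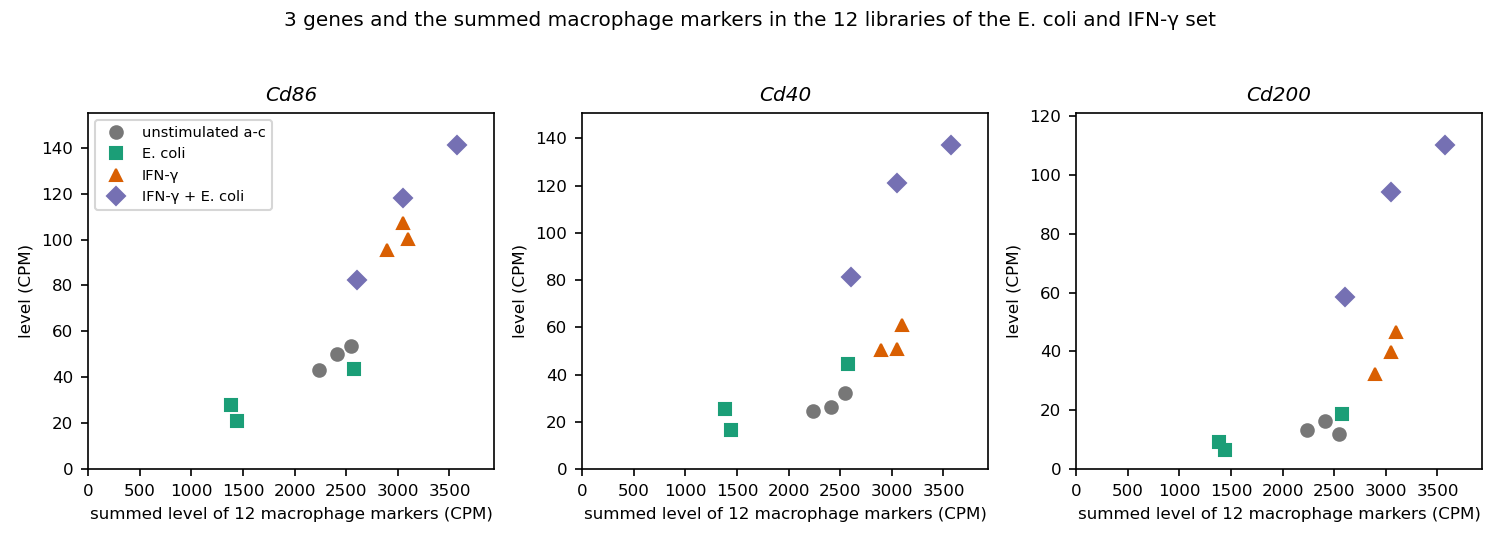
Level of *Cd86*, *Cd40* and *Cd200* (CPM) against the summed level of 12 macrophage markers (CPM) in the 12 libraries of the first set, 1 point a library, coloured by group. *E. coli* libraries 1 and 2 have the lowest sums, 1439 and 1386 CPM, and the lowest *Cd86*, 20.8 and 28.1 CPM.

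Dendritic cell markers (8 genes) also differed between groups. Their sum was 48.8, 52.6 and 53.3 CPM in unstimulated libraries a, b and c, 13.9, 21.7 and 35.5 CPM with *E. coli*, 92.4, 46.6 and 38.6 CPM with IFN-γ and 67.2, 88.8 and 73.2 CPM with both. It was 32.2, 31.0 and 41.9 CPM in unstimulated libraries d, e and f and 71.0, 70.3 and 98.8 CPM with IL-4. *Ccl22* carried most of the difference with IL-4, at 7.5, 7.45 and 10 CPM unstimulated and 44.5, 42.0 and 59.6 CPM with IL-4, while the other 7 genes summed to 24.7, 23.5 and 31.9 and to 26.4, 28.2 and 39.1 CPM. In the first set these 7 summed to 33.9, 41.2 and 42.1 CPM in unstimulated cells, 9.38, 14.0 and 24.7 CPM with *E. coli*, 50.4, 31.8 and 22.2 CPM with IFN-γ and 40.2, 53.7 and 39.6 CPM with both. *Fscn1*, *Ccl22* or *Ccr7* had the most counts, 6 to 8 of the 8 genes were detected in a library, and *Cd209a*, *Clec9a*, *Flt3* or *Xcr1* had a count of 0 in some. B cell markers (8 genes, 6 to 8 detected, *Ighm* highest) summed to 224, 199.6 and 121 CPM in unstimulated libraries a, b and c. They summed to 42.4, 47.1 and 78.5 CPM with *E. coli*, 100.2, 64.1 and 62.1 CPM with IFN-γ and 127, 139 and 131 CPM with both. In the IL-4 set they were at 25.0, 24.0 and 44.0 CPM unstimulated and 65.8, 60.3 and 73.4 CPM with IL-4, higher with IL-4 as *Cd40* was. The beads with antibodies to B220, which B cells carry, were used to remove such cells before culture. The part of dendritic cells and B cells in the levels of *Cd40*, *Cd83*, *Cd86* and *Pdcd1lg2*, which both cell types can express, was not tested.

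T cell markers (10 genes, 2 to 8 detected) summed to 2.85 to 17.5 CPM over the 18 libraries, with *Cd3d* highest in 17 of them and *Cd8a* or *Cd3e* at 0 in most. Mast cell markers (8 genes, 5 to 8 detected, *Hdc* highest) went from 29.8, 24.1 and 34.7 CPM in unstimulated cells to 134, 153 and 209.8 CPM with *E. coli*, 199, 197 and 170.0 CPM with IFN-γ and 535, 540.2 and 561 CPM with both, and *Mcpt4* or *Fcer1a* had a count of 0 in most libraries of the first set. They were at 67.5, 67.1 and 57.0 CPM in unstimulated libraries d, e and f and 107, 89.9 and 99.8 CPM with IL-4. *Hdc*, which other granulocytes can also express, carried most of each sum. Without it the other 7 genes summed to 10.8, 8.24 and 7.85 CPM in unstimulated libraries a, b and c, 11, 8.02 and 35.5 CPM with *E. coli*, 33.0, 15.9 and 15.0 CPM with IFN-γ and 40.9, 82.7 and 73.2 CPM with both. In the IL-4 set these 7 were at 10, 6.79 and 7.36 CPM unstimulated and 17.7, 7.98 and 23.6 CPM with IL-4. Neutrophil markers (8 genes, 5 to 8 detected) summed to 52.5, 44.4 and 54.1 CPM in unstimulated cells, 184, 162 and 245 CPM with *E. coli*, 102, 114 and 116 CPM with IFN-γ and 278, 293 and 305 CPM with both. In the IL-4 set they were at 26.7, 25.3 and 36.6 CPM unstimulated and 43.9, 44.9 and 65.6 CPM with IL-4. Over all 18 libraries *Cxcr2*, *S100a8* or *Mmp8* was highest, and *Ltf* was at 0 in most. *Mmp8* alone put both stimuli highest, since without it the other 7 genes summed to 42.5, 34.2 and 44.6 CPM in unstimulated libraries a, b and c, 159, 130.1 and 213 CPM with *E. coli*, 71.1, 67.7 and 79.8 CPM with IFN-γ and 70.8, 82.7 and 111 CPM with both. They were at 21.1, 19.9 and 22.7 CPM in unstimulated libraries d, e and f and at 41.7, 41.7 and 62.7 CPM with IL-4.

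Over the group means of the first set, *Pdcd1lg2* had the widest range among the 9 tested members, 3.53 on the log2 scale, followed by *Cd274* (3.36), *Cd200* (2.89), *Cd40* (2.01) and *Cd86* (1.88). These ranges come from log2 CPM with a prior count of 2, which narrows the range of genes with few counts. With the correction for the count ceiling *Cd274* had the widest, 3.92, followed by *Pdcd1lg2* (3.55). Without it, *Cd83* (1.54), *Cd80* (1.07), *Icosl* (0.66) and *Cd200r1* (0.58) ranged less. For *Cd274* and *Pdcd1lg2* every pair of neighbouring groups in the order of levels was called different. *Cd80* was ordered from unstimulated (36.5 ± 2.58 CPM) through IFN-γ (48.0 ± 12.9 CPM) and *E. coli* (58.9 ± 8.84 CPM) to both (78.1 ± 9.97 CPM), with no neighbouring pair called. For *Icosl* and *Cd83* no neighbouring pair was called either. The order of *Cd86* was *E. coli*, unstimulated, IFN-γ and both, and the last pair was not called. *Cd40* was ordered unstimulated, *E. coli*, IFN-γ and both, and *Cd200* the same with its first pair exchanged, and in each the first pair was not called. *Cd200r1* was lowest with IFN-γ, then with both, unstimulated and *E. coli*, and only the last of these neighbouring pairs was called.

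Genes with the pattern most like that of the 3 members of widest range were sought among the 9883 tested genes by the root mean square difference of centred group means (log2 CPM, 4 groups of 3 libraries). They were *Syt7* (0.27), *Met* (0.28) and *5830415G21Rik* (0.29) for *Pdcd1lg2*. For *Cd274* they were *Fam114a1* (0.10), *Pgm1* (0.11) and *Ppp1r13l* (0.11), and for *Cd200* *Intu* (0.05), *Ulbp1* (0.15) and *Ccrl2* (0.17).

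To find what the bacteria add to IFN-γ, the libraries with both stimuli were compared with those of IFN-γ alone. Of the 9 members, 5 were higher, beside 6.25% of all genes tested. They were *Pdcd1lg2* (2.07 ± 0.27, adjusted p = 4.14e-05), *Cd200* (1.16 ± 0.25, adjusted p = 0.00398), *Cd40* (1.07 ± 0.24, adjusted p = 0.00523), *Cd80* (0.71 ± 0.18, adjusted p = 0.0117) and *Cd274* (0.58 ± 0.14, adjusted p = 0.00935, and 0.78 with the correction for the count ceiling). In each of these, and in *Cd83*, which was not called, the libraries with both stimuli were all above the IFN-γ libraries. The share of all genes without overlap was not counted, here or in the comparisons of stimuli that follow. With edgeR the count lower was 0, beside 5.98% of all genes, with 1 at an unadjusted p under 0.05 (*Icosl*) and 0 by DESeq2. The call of *Cd80* was lost without IFN-γ library 1 (0.59, adjusted p = 0.078) and without IFN-γ library 2 (0.61, adjusted p = 0.0695), with adjusted p from 0.00211 to 0.078 over 12 alternatives. *Cd83* (1.06 ± 0.37, adjusted p = 0.0669) was called without IFN-γ library 1 (1.46, adjusted p = 0.0438), with adjusted p from 0.0438 to 0.214 over 12 alternatives. *Cd86* differed by 0.18, adjusted p = 0.619, and its groups overlapped.

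Against *E. coli* alone, both stimuli together showed what IFN-γ adds to the bacteria. They raised 6 members, beside 17.5% of all genes, and lowered 2, beside 15.3%. Higher were *Cd200* (2.98, adjusted p = 1.22e-07), *Cd274* (2.29, adjusted p = 7.14e-10, and 2.77 with the correction for the count ceiling), *Cd40* (2.00, adjusted p = 3.52e-06), *Cd86* (1.91, adjusted p = 9.62e-07), *Cd83* (1.78, adjusted p = 0.0012) and *Pdcd1lg2* (1.16, adjusted p = 7.57e-04). *Icosl* (−0.64, adjusted p = 0.0288) and *Cd200r1* (−0.42, adjusted p = 0.0163) were lower. The groups did not overlap for any of these genes, nor for *Cd80*, which was not called. The call of *Icosl* was lost from the 6 compared libraries alone (−0.65, adjusted p = 0.069), without *E. coli* library 2 (−0.65, adjusted p = 0.0632), without *E. coli* library 3 (−0.54, adjusted p = 0.0838) and without IFN-γ with *E. coli* library 2 (−0.34, adjusted p = 0.202), with adjusted p from 0.00562 to 0.202. That of *Cd200r1* was lost without *E. coli* library 1 (−0.41, adjusted p = 0.051), without *E. coli* library 2 (−0.38, adjusted p = 0.0704) and without IFN-γ with *E. coli* library 1 (−0.40, adjusted p = 0.0546), with adjusted p from 0.00321 to 0.0704. *Cd80* (0.40, adjusted p = 0.0768) was called without IFN-γ with *E. coli* library 3 (0.48, adjusted p = 0.0442), with adjusted p from 0.0442 to 0.235, each range over 12 alternatives.

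IFN-γ and *E. coli* were also compared with each other. With IFN-γ 4 members were higher than with *E. coli*, beside 14.1% of all genes, and 2 lower, beside 11.5%. *Cd200* (1.82, adjusted p = 1.36e-04), *Cd86* (1.73, adjusted p = 3.97e-06), *Cd274* (1.71, adjusted p = 3.07e-08, and 1.99 with the correction for the count ceiling) and *Cd40* (0.94, adjusted p = 0.0108) were the higher ones. *Cd200r1* (−0.58, adjusted p = 0.00209) and *Pdcd1lg2* (−0.91, adjusted p = 0.0259) were lower with IFN-γ. None of these called genes had overlapping groups, whereas those of *Cd80*, *Icosl* and *Cd83* overlapped. The call of *Pdcd1lg2* was lost with no filter on low counts (−0.92, adjusted p = 0.0535), with DESeq2 (−0.91, adjusted p = 0.0915), without *E. coli* library 2 (−0.81, adjusted p = 0.101), without *E. coli* library 3 (−0.81, adjusted p = 0.0785), without IFN-γ library 2 (−0.87, adjusted p = 0.0868) and without IFN-γ library 3 (−0.85, adjusted p = 0.0848), with adjusted p from 0.0143 to 0.101. That of *Cd40* was lost without *E. coli* library 1 (0.67, adjusted p = 0.0621), without *E. coli* library 2 (0.85, adjusted p = 0.0503) and without IFN-γ library 1 (0.84, adjusted p = 0.0506), with adjusted p from 6.20e-06 to 0.0621. *Cd80* (−0.32, adjusted p = 0.2) was called lower without IFN-γ library 3 (−0.54, adjusted p = 0.0326), with adjusted p from 0.0326 to 0.527, each range over 12 alternatives.

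Whether the joint effect of IFN-γ and *E. coli* departs from the sum of their log2 effects was tested as an interaction. With edgeR 0 members were called higher than the sum, beside 2.58% of all genes, and 0 lower, beside 2.04%. At an unadjusted p under 0.05 there were 4 higher (*Cd200*, *Cd40*, *Cd83* and *Cd86*) and 1 lower (*Cd274*), and DESeq2 called 1 higher and 0 lower. *Cd200* came nearest (1.48 ± 0.42, adjusted p = 0.0515) and was called with no filter on low counts (1.41, adjusted p = 5.39e-04), with DESeq2 (1.45, adjusted p = 0.0282), without *E. coli* library 3 (1.93, adjusted p = 0.00494), without IFN-γ with *E. coli* library 1 (1.67, adjusted p = 0.0185) and with the correction for the count ceiling (1.51, adjusted p = 0.0482), with adjusted p from 5.39e-04 to 0.153. *Cd40* (1.06 ± 0.36, adjusted p = 0.106) was called with no filter on low counts (0.99, adjusted p = 0.00515), without *E. coli* library 3 (1.46, adjusted p = 0.00613) and without IFN-γ with *E. coli* library 1 (1.22, adjusted p = 0.0494), with adjusted p from 0.00515 to 0.299. *Cd86* (0.89 ± 0.29, adjusted p = 0.0972) was called with no filter on low counts (0.82, adjusted p = 0.0177), without *E. coli* library 3 (1.17, adjusted p = 0.0109) and without IFN-γ with *E. coli* library 1 (1.04, adjusted p = 0.0356), with adjusted p from 0.0109 to 0.269. *Cd274* (−0.46 ± 0.20, adjusted p = 0.247) was called without unstimulated library c (−0.72, adjusted p = 0.0228), with adjusted p from 0.0228 to 0.498, and with the correction for the count ceiling its value was −0.34, adjusted p = 0.447. The remaining values were 1.40, adjusted p = 0.194 for *Cd83*, −1.08, adjusted p = 0.3 for *Pdcd1lg2*, −0.61, adjusted p = 0.315 for *Icosl*, −0.18, adjusted p = 0.696 for *Cd200r1* and 0.01, adjusted p = 0.993 for *Cd80*. Of the marker genes, all 5 tested ones of B cells were called higher than the sum (median 2.68) and 2 of 3 of dendritic cells (median 1.80), while the median of 11 macrophage markers was 0.65, against 0.00 over all genes. Their part in the values of the members was not tested.

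The response to IL-4 was set against the response to IFN-γ, each relative to the unstimulated libraries of its set, in a model of all 18 libraries with 10671 genes. The IL-4 response was lower for 2 members, beside 14.7% of all genes. They were *Cd274* (−2.42 ± 0.24, adjusted p = 1.52e-07, and −2.75 with the correction for the count ceiling) and *Cd200r1* (−0.68 ± 0.18, adjusted p = 0.00775). With edgeR it was higher for 0 members, beside 13.0% of all genes, with 0 at an unadjusted p under 0.05 and 0 by DESeq2. *Cd200* (−1.22 ± 0.46, adjusted p = 0.0509) was called lower with DESeq2 size factors (−1.25, adjusted p = 0.0485), with no filter on low counts (−1.22, adjusted p = 0.00364), with DESeq2 (−1.23, adjusted p = 0.0427), without IFN-γ library 2 (−1.36, adjusted p = 0.0454), without unstimulated library d (−1.39, adjusted p = 0.0284), without unstimulated library e (−1.37, adjusted p = 0.0333) and without IL-4 library 3 (−1.52, adjusted p = 0.0189), with adjusted p from 0.00364 to 0.169. *Cd86* (−0.68 ± 0.26, adjusted p = 0.0587) was called lower with no filter on low counts (−0.67, adjusted p = 0.0474) and without unstimulated library d (−0.73, adjusted p = 0.0492), with adjusted p from 0.0474 to 0.119. *Icosl* (−0.86 ± 0.40, adjusted p = 0.114) was called lower with no filter on low counts (−0.85, adjusted p = 0.029) and without unstimulated library d (−1.14, adjusted p = 0.0142), with adjusted p from 0.0142 to 0.467. With a library left out, the difference for *Icosl* ran from −1.14 to −0.33. For *Pdcd1lg2*, which both cytokines raised, the difference was 0.82 ± 0.55, adjusted p = 0.38.

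Against the response to *E. coli*, the IL-4 response was higher for 2 members, beside 14.4% of all genes, and lower for 2, beside 13.7%. It was higher for *Cd40* (1.1 ± 0.34, adjusted p = 0.0199) and *Cd86* (1.07 ± 0.27, adjusted p = 0.00565), and lower for *Cd200r1* (−1.25 ± 0.18, adjusted p = 2.23e-05) and *Cd274* (−0.69 ± 0.24, adjusted p = 0.0345, and −0.77 with the correction for the count ceiling). The call of *Cd274* was lost without unstimulated library a (−0.59, adjusted p = 0.106), without unstimulated library b (−0.58, adjusted p = 0.0864), without *E. coli* library 2 (−0.71, adjusted p = 0.0505), without *E. coli* library 3 (−0.61, adjusted p = 0.0792), without unstimulated library d (−0.66, adjusted p = 0.0543), without unstimulated library f (−0.52, adjusted p = 0.109) and without IL-4 library 3 (−0.63, adjusted p = 0.0792), with adjusted p from 0.00227 to 0.109. That of *Cd40* was lost without unstimulated library a (0.97, adjusted p = 0.0781), without *E. coli* library 1 (0.82, adjusted p = 0.0684) and without *E. coli* library 2 (1.01, adjusted p = 0.0567), with adjusted p from 5.30e-04 to 0.0781. *Icosl* (−0.96, adjusted p = 0.0707) was called lower with no filter on low counts (−0.98, adjusted p = 0.00568) and without unstimulated library d (−1.25, adjusted p = 0.00698), with adjusted p from 0.00568 to 0.31. With a library left out, the difference for *Icosl* ran from −1.25 to −0.43. *Cd80* (−0.78, adjusted p = 0.0662) was called lower with no filter on low counts (−0.80, adjusted p = 0.0299), without *E. coli* library 3 (−0.89, adjusted p = 0.0474), without unstimulated library f (−0.92, adjusted p = 0.0363) and without IL-4 library 1 (−0.97, adjusted p = 0.032), with adjusted p from 0.0299 to 0.152. *Pdcd1lg2* differed by −0.08 ± 0.35, adjusted p = 0.925. The 2 contrasts of IL-4 share the IL-4 libraries and all unstimulated libraries.

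Of 12 other genes of the B7 and butyrophilin families, 9 had at most 3 counts in every library, with *Vtcn1*, *Btn2a2* and *Btnl6* at 0 throughout, and 2 were tested. *Btnl9*, a butyrophilin-like gene, fell with *E. coli* from 13.0 ± 4.24 to 4.78 ± 0.716 CPM (−1.46 ± 0.36, adjusted p = 0.00418). It passed the filter on low counts through its unstimulated libraries, where it was highest, and this adjusted p is conditional on that. With IFN-γ *Btnl9* had 4 counts over 3 libraries and with both stimuli 2, against 88 in unstimulated cells. The ratio of unstimulated cells to these was 17.3 (95% interval 6.54 to 65.0) and 31.0 (95% interval 8.33 to 260.1). *Vsir*, which encodes the inhibitory ligand VISTA, was lower with both stimuli, from 532 ± 63.8 to 342 ± 52.3 CPM (−0.64 ± 0.12, adjusted p = 3.44e-04, and −0.75 with the correction for the count ceiling). The median log2 fold change of the pair was −0.84, −2.14, −2.70 and 0.28 with *E. coli*, IFN-γ, both and IL-4, against −0.02, −0.03, −0.04 and 0.00 over all genes, the values to set beside the lists that follow. Of all genes tested, 13.5% were called higher and 16.7% lower with *E. coli*, 15.6% and 16.0% with IFN-γ, 23.9% and 25.2% with both, and 5.97% and 4.35% with IL-4, shares against which the counts in the lists can be read. These counts and medians are without the correction for the count ceiling.

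Of 11 genes for the T cell partners of the members, 0 were tested in the first set and 1 in the IL-4 set, where it was not called. *Ctla4*, *Icos*, *Pdcd1*, *Cd40lg*, *Lag3*, *Tigit* and *Cd96* had at most 3 counts in every library, and *Tigit* was at 0 throughout.

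Among 16 genes for other checkpoint ligands and receptors, 11 were tested in the first set and 12 in the second. They were 3 lower with *E. coli*, 1 higher and 5 lower with IFN-γ and 3 higher and 5 lower with both, and 3 were higher with IL-4. *Pvr*, a ligand of TIGIT and CD226, went with both stimuli from 10.6 ± 2.64 to 45.2 ± 5.66 CPM (2.04 ± 0.27, adjusted p = 4.68e-06). *Cd244a*, a receptor for CD48, fell with IFN-γ from 77.3 ± 19.2 to 22.4 ± 3.72 CPM (−1.78 ± 0.19, adjusted p = 8.56e-07) and rose with IL-4 from 43.4 ± 8.41 to 88.5 ± 9.24 CPM (1.04 ± 0.17, adjusted p = 0.00373). *Lgals9*, which encodes the TIM-3 ligand galectin-9, fell with *E. coli* from 1173 ± 142 to 854 ± 55.5 CPM (−0.46 ± 0.11, adjusted p = 0.00367). With up to 2934 counts in a library it was near the ceiling, and its corrected value was −0.63. *Timd4*, a receptor for phosphatidylserine found on peritoneal macrophages, also fell with *E. coli*, from 28.1 ± 4.55 to 9.43 ± 2.95 CPM (−1.62 ± 0.25, adjusted p = 6.41e-05). Medians were −0.12, −0.04, −0.34 and 0.41 with *E. coli*, IFN-γ, both and IL-4.

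The TNF superfamily has its own co-stimulatory ligands and receptors, of which 4 of 9 were tested in the first set. Each of the 3 stimuli raised 3 of the 4, and *E. coli* and both stimuli lowered 1. *Tnfsf9*, the ligand 4-1BBL, rose with *E. coli* from 2.2 ± 0.289 to 7.82 ± 1.89 CPM (1.77 ± 0.39, adjusted p = 0.00198). It was also higher with IFN-γ (2.90 ± 0.36, adjusted p = 5.02e-06) and both stimuli (3.61 ± 0.34, adjusted p = 5.71e-08). In unstimulated cells *Tnfsf9* was near the floor, so it passed the filter on low counts through its stimulated libraries. These 3 adjusted p-values are conditional on that. *Tnfrsf18*, the receptor GITR, rose with IFN-γ from 50.3 ± 10.3 to 89.7 ± 27.2 CPM (0.85 ± 0.19, adjusted p = 0.0019). Medians were 1.07, 0.61, 1.34 and 0.29 with *E. coli*, IFN-γ, both and IL-4, where 5 genes were tested.

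Downstream of CD40, all 14 genes for TRAF adaptors and NF-κB signalling were tested. They were 5 higher and 1 lower with *E. coli*, 7 higher and 2 lower with IFN-γ and 9 higher and 1 lower with both, and 3 were higher with IL-4. *Tnfaip3*, an inhibitor of NF-κB signalling that NF-κB induces, rose with both stimuli from 52.4 ± 8.66 to 260.3 ± 22.5 CPM (2.31 ± 0.14, adjusted p = 1.1e-10). *Nfkb2*, a subunit of the non-canonical NF-κB pathway, rose in the same libraries from 83.0 ± 11 to 279 ± 13.2 CPM (1.74 ± 0.14, adjusted p = 8.48e-09). With IL-4 *Rel* rose from 32.1 ± 6.63 to 52.8 ± 4.11 CPM (0.73 ± 0.17, adjusted p = 0.0247). Medians were 0.14, 0.50, 0.59 and 0.01 with *E. coli*, IFN-γ, both and IL-4.

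Of 15 genes for IFN-γ signalling and PD-L1 stability, 14 were tested in the first set and 15 in the second. Counts were 4 higher and 6 lower with *E. coli*, 7 higher with IFN-γ and 9 higher and 2 lower with both, while 8 were higher with IL-4. *Irf1*, the transcription factor that drives *Cd274* in many cell types, rose with IFN-γ from 312 ± 19.3 to 1320.0 ± 30.1 CPM (2.08 ± 0.10, adjusted p = 2.47e-11; 2.53 with the correction for the ceiling, since its counts reached 2522) and with IL-4 from 253 ± 24.3 to 495 ± 26.0 CPM (0.97 ± 0.12, adjusted p = 7.82e-04). *Socs1*, a feedback inhibitor of JAK kinases, rose with IL-4 from 291 ± 30.5 to 835 ± 79.3 CPM (1.52 ± 0.13, adjusted p = 9.61e-05). Medians were −0.17, 0.48, 0.54 and 0.56 with *E. coli*, IFN-γ, both and IL-4.

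In IL-4 signalling 5 of 6 genes were tested in the first set and 6 in the second, with 3 higher and 1 lower with *E. coli*, 3 higher with IFN-γ, 3 higher with both and 1 higher with IL-4. *Irf4*, a transcription factor of alternatively activated macrophages, rose with IL-4 from 0.909 ± 0.523 to 6.21 ± 0.841 CPM (2.71 ± 0.46, adjusted p = 0.00427). Its unstimulated level was near the floor, so it passed the filter on low counts through the IL-4 libraries. That adjusted p is conditional on this. *Il13ra1*, a chain of the type II IL-4 receptor, rose with IFN-γ from 6.37 ± 0.933 to 67.6 ± 14.8 CPM (3.38 ± 0.24, adjusted p = 4.97e-09). Medians were 0.43, 0.49, 0.53 and 0.05 with *E. coli*, IFN-γ, both and IL-4. All 4 genes downstream of CD200R1 were tested, and *Dok2*, its adaptor, fell with IFN-γ from 302 ± 23.2 to 204 ± 21.5 CPM (−0.56 ± 0.12, adjusted p = 0.00143) and with both stimuli from 302 ± 23.2 to 147 ± 23.1 CPM (−1.04 ± 0.12, adjusted p = 1.47e-06). Medians of these 4 were −0.05, 0.02, −0.37 and −0.18.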

How the data were processed

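Gene counts of 18 libraries were taken as deposited. The count values, whole numbers of reads or molecules assigned to a gene, were made by the authors, whose notes name CEL-Seq2 libraries, fastp 0.20.1, STAR 2.7.2a, TopHat2 2.1.0, HTSeq 0.6.1 and the genome build GRCm38. The labels also name RNA sequencing on a HiSeq instrument, and do not state which aligner made which file, or how unique molecular identifiers were collapsed. Lines for reads outside genes (18.9 to 37.6%) or ambiguous between genes (1.84 to 2.27%) were left out of the first set, and the second set has none. Ensembl IDs were matched to GENCODE M21, with 54079 found (98.3% of the first and 99.7% of the second gene list).

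Genes were filtered with filterByExpr, normalized with TMM and tested with the quasi-likelihood F test of edgeR 4.0.16 in R 4.3.3, with group means as the model and the Benjamini-Hochberg adjustment over all genes tested at a threshold of 0.05. Standard errors are the log2 fold change divided by the square root of F. Libraries of each set were fitted together, and all 18 for the contrasts of IL-4 with the other responses. Alternatives were DESeq2 size factors, DESeq2 1.42.0, no filter, a required factor of 2, the 6 compared libraries alone, each library left out in turn, a replicate block over the 9 stimulated libraries of the first set and, chosen after seeing the data, a correction for the ceiling of 4096 identifiers. The floor was 3 counts.

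Named are the 10 members and up to 4 called genes a list and comparison with the largest absolute log2 fold change, of which a few are described. Also named are the 3 genes closest in pattern to the 3 members of widest range, and tested genes within 300 kb of *Cd274*. The members and lists were chosen with earlier results of these data known.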

Additional observations from a re-analysis of the deposited data

Results flagged for a closer look

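Of the genes of the related lists whose change with *E. coli* differed between cells without and with IFN-γ by the interaction test of edgeR, 8 of 9 are given here. Over all genes tested, 2.58% were called higher and 2.04% lower in this test. In the list for IFN-γ signalling and PD-L1 stability 3 genes were called higher, of which *Stat2* and *Irf1* are given. Each value is the difference of the 2 log2 fold changes. Values above 0 are given for 5 genes. *Stat2*, a transcription factor of type I interferon signalling, had 1.05 ± 0.16 (adjusted p = 6.14e-04), its change being −0.95 with *E. coli* alone and 0.10 on top of IFN-γ. For *Irf1*, a transcription factor of interferon responses, it was 0.71 ± 0.14 (adjusted p = 0.0059), from −0.76 with *E. coli* alone and −0.05 on top of IFN-γ. *Nfkb1*, a subunit of NF-κB, had 0.74 ± 0.15 (adjusted p = 0.00668), its change being −0.20 with *E. coli* alone and 0.54 on top of IFN-γ. For *Cd48*, the ligand of CD244, it was 0.76 ± 0.17 (adjusted p = 0.0123), from −0.55 with *E. coli* alone and 0.21 on top of IFN-γ. *Timd4*, a phosphatidylserine receptor, had 1.62 ± 0.34 (adjusted p = 0.00953), its change being −1.62 with *E. coli* alone and 0.00 on top of IFN-γ. Values below 0 are given for 3 genes. *Il4ra*, the IL-4 receptor alpha chain, had −1.14 ± 0.15 (adjusted p = 2.86e-04), with 1.1 for *E. coli* alone and −0.04 on top of IFN-γ. *Il13ra1*, a chain of the type II IL-4 receptor, had −1.34 ± 0.34 (adjusted p = 0.0278), with 1.26 for *E. coli* alone and −0.08 on top of IFN-γ. *Socs1*, a feedback inhibitor of JAK kinases, had −0.81 ± 0.17 (adjusted p = 0.0102), with 0.77 for *E. coli* alone and −0.04 on top of IFN-γ. Counts of *Irf1* and *Socs1* reached 2522 and 2541 in a library, against a ceiling of 4096, and with a correction for it the values were 0.67 and −1.16.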

How the results depend on the processing

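Each group holds 3 libraries, and members with few counts (*Pdcd1lg2* and *Cd83* in unstimulated cells, *Havcr2* throughout) limit what the depth can show. Of the 90 tests of members, 57 had the same direction and the same side of the threshold under every alternative, and 7 of 20 counts of called members stayed within 1.5 times. The correction for the count ceiling was chosen after seeing the data. The cause of the changes listed here was not tested, except that a required factor of 2 can only lower a count and that leaving out a library leaves fewer samples.

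For the counts of called members, a required factor of 2 gave 2 instead of 4 (higher, *E. coli*), 0 instead of 1 (lower, *E. coli*), 0 instead of 1 (lower, both), 0 instead of 1 (lower, IL-4), 3 instead of 5 (higher, both against IFN-γ), 0 instead of 2 (lower, both against *E. coli*), 0 instead of 2 (lower, IFN-γ against *E. coli*), 1 instead of 2 (lower, IL-4 response against IFN-γ response) and 1 instead of 2 (lower, IL-4 response against *E. coli* response). No filter on low counts gave 2 instead of 1 (lower, IL-4), 1 instead of 2 (lower, IFN-γ against *E. coli*), 3 instead of 0 (higher, interaction of IFN-γ and *E. coli*), 5 instead of 2 (lower, IL-4 response against IFN-γ response) and 4 instead of 2 (lower, IL-4 response against *E. coli* response). DESeq2 gave 0 instead of 1 (lower, both), 1 instead of 2 (lower, IFN-γ against *E. coli*) and 1 instead of 0 (higher, interaction of IFN-γ and *E. coli*). DESeq2 size factors gave 0 instead of 1 (lower, both). The 6 compared libraries alone gave 0 instead of 1 (lower, both) and 1 instead of 2 (lower, both against *E. coli*). The correction for the count ceiling gave 0 instead of 1 (lower, both) and 1 instead of 0 (higher, interaction of IFN-γ and *E. coli*). Leave-one-out fits gave counts of 0 to 1 (lower, *E. coli*, 1 with all libraries), 0 to 1 (lower, IFN-γ, 0 with all libraries), 0 to 1 (lower, both, 1 with all libraries), 1 to 2 (lower, IL-4, 1 with all libraries), 0 to 2 (lower, both against *E. coli*, 2 with all libraries), 1 to 2 (lower, IFN-γ against *E. coli*, 2 with all libraries), 0 to 3 (higher, interaction of IFN-γ and *E. coli*, 0 with all libraries), 0 to 1 (lower, interaction of IFN-γ and *E. coli*, 0 with all libraries), 2 to 5 (lower, IL-4 response against IFN-γ response, 2 with all libraries), 1 to 2 (higher, IL-4 response against *E. coli* response, 2 with all libraries) and 1 to 3 (lower, IL-4 response against *E. coli* response, 2 with all libraries).

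Log2 fold changes near 0 changed sign. They were −0.0013 with the correction for the count ceiling for *Cd40* (*E. coli*) (adjusted p over its alternatives 0.25 to 0.998) and −0.063 with no filter on low counts for *Cd80* (interaction of IFN-γ and *E. coli*) (adjusted p over its alternatives 0.749 to 1.00). With each library left out they were −0.0058 to 0.19 for *Icosl* (*E. coli*), −0.39 to 0.28 for *Cd40* (*E. coli*), −0.092 to 0.077 for *Icosl* (IFN-γ), −0.019 to 0.65 for *Cd83* (IFN-γ), −0.21 to 0.026 for *Cd200r1* (both), −0.26 to 0.16 for *Cd80* (IL-4), −0.0023 to 0.36 for *Cd86* (both against IFN-γ), −0.13 to 0.21 for *Cd80* (interaction of IFN-γ and *E. coli*) and −0.26 to 0.030 for *Pdcd1lg2* (IL-4 response against *E. coli* response).

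A required factor of 2 took the counts over all genes from 1337 to 350 higher and 1649 to 673 lower (*E. coli*), 1541 to 496 higher and 1579 to 691 lower (IFN-γ), 2358 to 915 higher and 2486 to 1295 lower (both), 630 to 326 higher and 459 to 152 lower (IL-4), 618 to 218 higher and 591 to 186 lower (both against IFN-γ), 1725 to 753 higher and 1515 to 572 lower (both against *E. coli*), 1393 to 635 higher and 1132 to 392 lower (IFN-γ against *E. coli*), 255 to 157 higher and 202 to 88 lower (interaction of IFN-γ and *E. coli*), 1392 to 1002 higher and 1572 to 787 lower (IL-4 response against IFN-γ response) and 1538 to 1088 higher and 1457 to 699 lower (IL-4 response against *E. coli* response). With no filter on low counts 719 instead of 459 genes were lower with IL-4, and 316 instead of 202 lower in the interaction. With a library left out the counts were 311 to 812 higher and 171 to 582 lower for IL-4, 374 to 547 higher and 336 to 575 lower for both against IFN-γ and 138 to 355 higher and 112 to 276 lower for interaction of IFN-γ and *E. coli*.

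The labels do not say that libraries of one number belong together. Residuals of libraries with the same number correlated at 0.166 on average between both stimuli and IFN-γ, 0.111 between both and *E. coli*, and 0.0515 between IFN-γ and *E. coli*, and 2, 2 and 1 of 3 libraries were closest to the one of their own number, so the numbers were not taken to pair the libraries. A fit with the replicate number as a replicate block gave *Cd274* 0.57 (adjusted p = 1.80e-04) for both against IFN-γ, and *Cd80* 0.71 (adjusted p = 0.0192). It changed no call of the 9 members in the 3 comparisons among stimuli.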
